A study of Homo sapiens with 9 samples.

Results

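The 50 genes described here encode C2H2 zinc finger proteins and lie in 2 groups on the long arm of chromosome 19, 30 at 19q13.11 to 19q13.12 and 20 at 19q13.31. They were chosen by symbol from the 25886 symbols of the count table, and all 50 had a row. On GRCh38 the first group spans 3.14 Mb (chromosome 19, 34677639 to 37817300) and the second 0.673 Mb (chromosome 19, 43827292 to 44500524). The cells were HT29, an established human colorectal cancer line, with stable lentiviral knockdown of DNMT1 or of DNMT3B, and Control cells. The knockdown cells had been selected with puromycin, and each group had 3 libraries of rRNA-depleted total RNA. The count columns are headed shDNMT1, shDNMT3B and, for Control, shCTR. No source used here gives the construct sequences, what the Control cells received beyond that heading or whether a group came from 1 infection. DNMT1 copies DNA methylation onto new strands at replication, and DNMT3B can methylate unmarked DNA. The comparisons ask what changes when either enzyme is lowered.

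Most C2H2 zinc finger proteins of chromosome 19 carry a KRAB domain, which recruits the corepressor TRIM28 and, through it, the histone methyltransferase SETDB1 and HP1 proteins. Their finger arrays bind DNA, often within transposable elements, and the genes arose by repeated tandem duplication. Neighbours therefore resemble each other in sequence, and promoters of several such genes are known to be methylated in tumours.

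Libraries held 18772187 to 33666224 counts. DNMT1 mRNA stood at 252 ± 4.68 CPM (counts scaled to a common library total) in the DNMT1 knockdown, against 458 ± 10.3 CPM in Control, and DNMT3B mRNA at 30.5 ± 2.45 CPM in the DNMT3B knockdown, against 61.3 ± 1.17 CPM in Control (SD, n = 3 each). Both targeted genes were therefore lower in the libraries labelled with their knockdown. Replicates correlated at 0.998 to 0.999 across genes, which are not independent samples. The labels do not say whether replicates were separate cultures, so every p-value reflects the scatter among these libraries alone, and that scatter may be technical. In bulk RNA, fewer cells expressing a gene and less RNA per cell cannot be told apart. Of 10 colon epithelial markers, KRT8 and KRT18 were high in every group, and VIL1, CDX1, LGALS4 and CDH17 were each under 1 CPM on average in every group. EPCAM averaged 249 CPM with DNMT1 knockdown, 235 CPM with DNMT3B knockdown and 285 CPM in Control. In the same order CDH1 averaged 182, 163 and 147 CPM, CDX2 40.1, 40.1 and 38.2 CPM, and KRT20 1.63, 2.02 and 1.03 CPM. Summed markers of other cell types were higher with DNMT3B knockdown, and so was the colon epithelial sum. The 10 colon epithelial markers summed to 2003 to 2090 CPM with DNMT1 knockdown, 2038 to 2230 CPM with DNMT3B knockdown and 1921 to 1995 CPM in Control. KRT8 made up most of that sum, averaging 1070, 1168 and 1004 CPM in the same order, and KRT18 averaged 495, 496 and 477 CPM. The markers did not rise together, since EPCAM was lower in both knockdowns. The part of any of these markers in the results below was not tested. The 8 leukocyte markers summed to 19.1 to 20.4 CPM with DNMT1 knockdown, 31.9 to 36.9 CPM with DNMT3B knockdown and 18.998 to 19.96 CPM in Control. CD68, a lysosomal protein gene, made up most of that sum (32.9 CPM with DNMT3B knockdown and 17.7 CPM in Control), while PTPRC, which defines leukocytes, averaged 0.148 CPM with DNMT3B knockdown and 0.101 CPM in Control. The 8 fibroblast markers summed to 23.6 to 28.4 CPM with DNMT1 knockdown, 32.8 to 33.96 CPM with DNMT3B knockdown and 20.7 to 25.6 CPM in Control, mostly from COL1A1, and COL1A2 and DCN had 0 counts. The 6 endothelial markers summed to 4.09 to 5.24 CPM with DNMT1 knockdown, 5.82 to 6.79 CPM with DNMT3B knockdown and 4.86 to 5.55 CPM in Control. VWF averaged 2.6 CPM with DNMT3B knockdown and 1.2 CPM in Control. The means of KDR, CDH5 and TEK, each under 1 CPM, were also higher, but their libraries overlapped those of Control. The means of CLDN5 (1.51 and 2.14 CPM) and PECAM1 (0.685 and 0.894 CPM) were lower, and the PECAM1 libraries overlapped those of Control.

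In all 3 groups, members with next to no counts followed each other in runs at 19q13.11 to 19q13.12, while at 19q13.31 they lay singly or in pairs. Neighbours and runs here are by the map order of the 50 genes alone. Other genes were left out of that order, and 78 of them, 52 tested, lay within the 19q13.11 to 19q13.12 span. The arrangement was not tested. Of the 50 genes, 31 passed the low-count filter and could be tested, 10 had from 1 to 67 counts over the 9 libraries, and 9 had 0 counts in every library. All 31 but ZNF850 reached the filter's level of 0.412 CPM in each of the 9 libraries, so no gene was tested only because of the group in which it was high. A count of 0 allows up to 3 counts, or 0.0895 to 0.162 CPM depending on the library, and covers counting error only. By share, 18.0% of the 50 genes had 0 counts, against 12.8% of the whole table, 9.4% of the other numbered ZNF genes of 19q and 24.1% of those of 19p.

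At 19q13.11 to 19q13.12, 3 runs of neighbours were silent or nearly so. The first was ZNF260, ZNF529 and ZNF382, with 2 counts in all between 36510695 and 36634113. ZNF382 encodes a KRAB repressor described as a methylated tumour suppressor, and ZNF260 in rat is a regulator of cardiac genes. The next run was ZNF790, ZNF345, ZNF829, ZNF568 and ZNF420, with 5 counts in all between 36817428 and 37130314. ZNF568 is the human counterpart of mouse Zfp568, which represses a placental Igf2 transcript, and ZNF420 (Apak) is a negative regulator of p53. The last was ZNF569, ZNF570, ZNF793, ZNF540 and ZNF571, where ZNF540 held 56 of 64 counts. Between these runs lay expressed genes, ZNF461, ZNF567 and ZNF850 in one gap and ZNF585A, ZNF585B, ZNF383 and ZNF527 in the other. At 19q13.31 the genes below the filter were the neighbours ZNF223 and ZNF284 with 2 counts in all, the neighbours ZNF285 and ZNF229 with 0, and singly ZNF404 with 29 and ZNF155 with 67.

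None of the other 19 genes passed the low-count filter, so no change in them could be tested at this depth. ZNF260, ZNF529, ZNF345, ZNF829, ZNF568, ZNF570, ZNF793, ZNF285 and ZNF229 had 0 counts in DNMT1 knockdown, DNMT3B knockdown and Control libraries alike. ZNF790 had 4 counts, all with DNMT3B knockdown (2, 2 and 0), against 0 counts in the Control libraries. ZNF155 had 11, 13 and 6 counts with DNMT1 knockdown and 4, 6 and 4 with DNMT3B knockdown, against 5, 10 and 8 counts in Control, and the 3 groups overlapped. ZNF540 had 22 counts in sum with DNMT1 knockdown, 14 with DNMT3B knockdown and 20 in Control. ZNF404 had 5, 11 and 13 counts in the same groups. Of ZNF223 and ZNF284, 45.5% and 43.9% of exon bases also belong to the gene AC067968.1 in the annotation, so their low counts are uncertain. The counts of ZNF155 and ZNF404 are uncertain too, since 41.4% and 17.6% of their exon bases overlap AC006213.1 and AC006213.2.

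**Figure D1:**
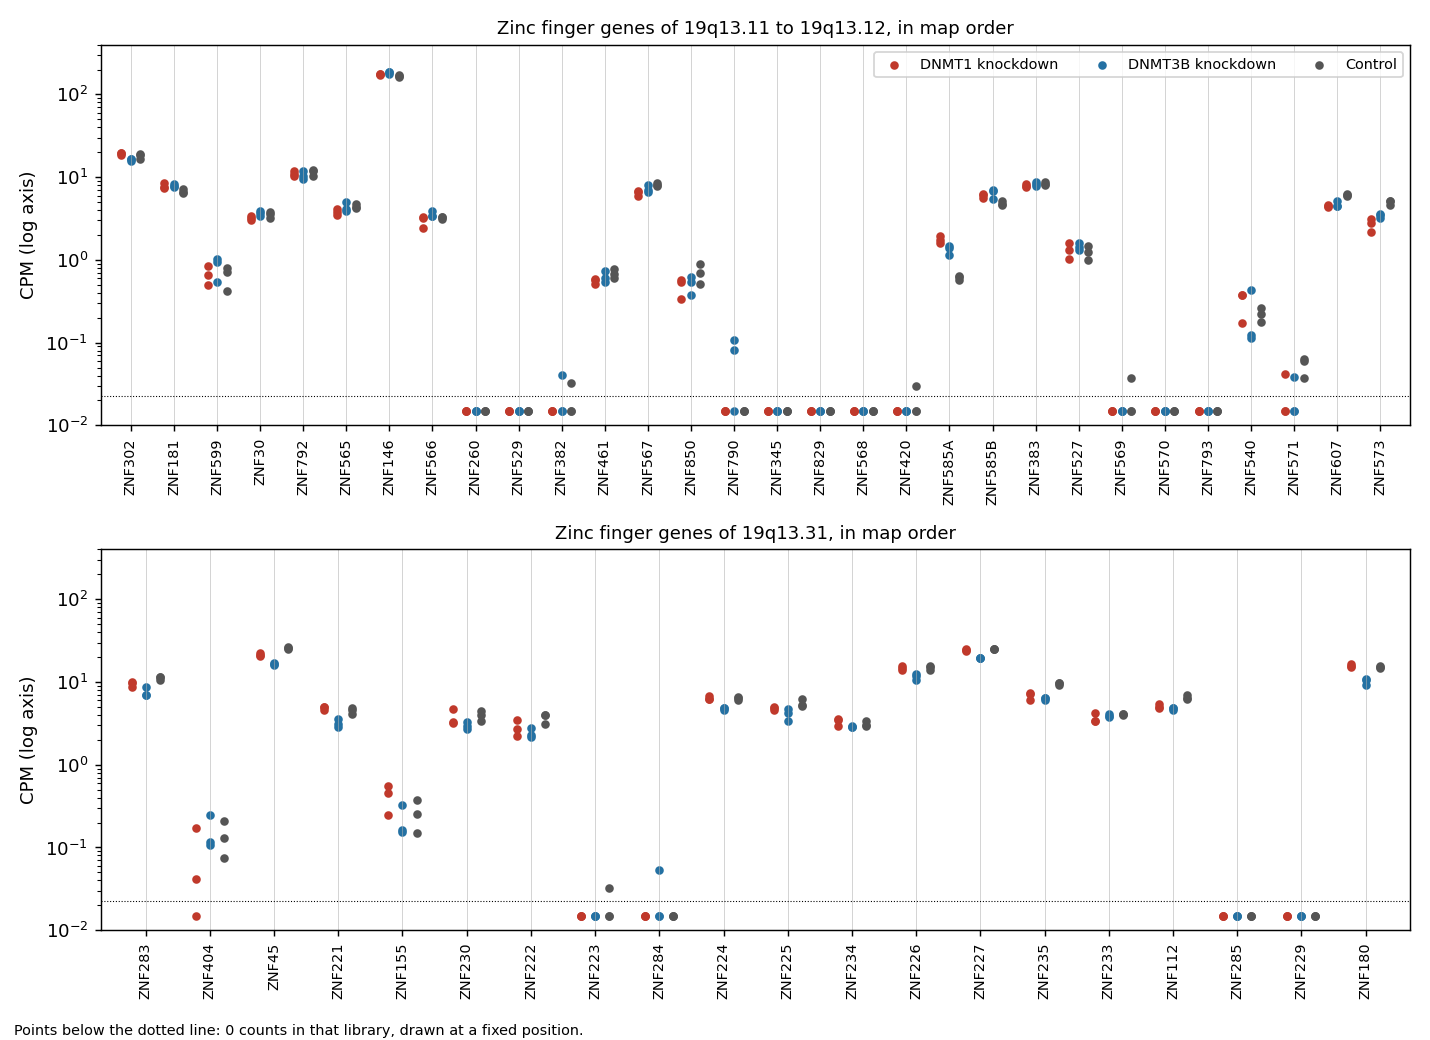
Level of each of the 50 genes in map order, as CPM on a log axis, with 1 point per library (DNMT1 knockdown, DNMT3B knockdown, Control). Points under the dotted line mark libraries with 0 counts, and the silent runs hold them in all 3 groups, as for ZNF345 to ZNF568.

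Members that start close together on opposite strands were, in each pair found, both below the filter or both tested. By RefSeq starts, known for 44 of the 50 genes, 6 pairs lie within 1000 bp. In 4 of them neither gene was tested. ZNF529 and ZNF382 start 56 bp apart and had 0 and 2 counts, ZNF790 and ZNF345 start 84 bp apart and had 4 and 0 counts, ZNF829 and ZNF568 start 41 bp apart and had 0 counts each, and ZNF569 and ZNF570 start 328 bp apart and had 1 and 0 counts. In the other 2 both genes were tested. ZNF565 and ZNF146 start 22 bp apart and had 976 and 40431 counts, and ZNF461 and ZNF567 start 97 bp apart and had 146 and 1694 counts. The pairs depend on the annotation: by the outermost gene ends of GENCODE there were 4, of which 3 are among those above, and the fourth was ZNF585B and ZNF383, both tested. With so few pairs this is a description only.

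Promoter sequence did not separate silent from expressed members in the number of CpG sites. RefSeq promoters of 300 bases (250 before to 50 after the start, GRCh38.p14) were found for 44 of the 50 genes. The median was 20 CpG sites in the 28 tested members and 20 in the 9 with 0 counts, against 14 over all 27305 promoters of the reference table and 25 over the 12705 promoters of tested genes. The ratio of observed to expected CpG had medians of 0.81 in tested members and 0.782 in members with 0 counts, against 0.58 over all promoters and 0.815 over those of tested genes. The promoters below are shown because they stand for the patterns of the text: ZNF529 and ZNF285 had 0 counts in every library, ZNF585A was higher and ZNF573 lower in both knockdowns, and ZNF45 and ZNF180 were among the 19q13.31 genes lower with DNMT3B knockdown. All are on the minus strand of chromosome 19 and are written 5′ to 3′ along the gene, with each CpG in capitals.
ZNF529, chr19:36605208-36605507, 28 CpG sites: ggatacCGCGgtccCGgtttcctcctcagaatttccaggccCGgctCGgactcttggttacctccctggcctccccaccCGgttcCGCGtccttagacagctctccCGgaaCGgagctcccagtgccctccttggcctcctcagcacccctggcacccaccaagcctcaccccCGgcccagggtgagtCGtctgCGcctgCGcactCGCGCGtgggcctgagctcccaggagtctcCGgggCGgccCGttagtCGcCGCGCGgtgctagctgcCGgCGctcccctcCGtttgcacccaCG
ZNF585A, chr19:37172646-37172945, 17 CpG sites: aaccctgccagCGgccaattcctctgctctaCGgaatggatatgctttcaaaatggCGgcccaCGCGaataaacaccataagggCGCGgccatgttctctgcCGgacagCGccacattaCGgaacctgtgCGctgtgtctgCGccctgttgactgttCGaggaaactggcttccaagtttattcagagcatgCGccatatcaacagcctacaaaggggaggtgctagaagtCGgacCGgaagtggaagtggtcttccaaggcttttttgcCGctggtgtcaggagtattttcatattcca
ZNF573, chr19:37779537-37779836, 18 CpG sites: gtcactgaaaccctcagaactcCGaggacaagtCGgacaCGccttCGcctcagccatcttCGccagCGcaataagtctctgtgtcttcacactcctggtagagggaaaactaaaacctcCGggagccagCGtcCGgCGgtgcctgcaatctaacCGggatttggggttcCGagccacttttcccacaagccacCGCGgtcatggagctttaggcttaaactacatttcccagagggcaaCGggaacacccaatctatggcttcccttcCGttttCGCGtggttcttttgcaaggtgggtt
ZNF45, chr19:43935233-43935532, 22 CpG sites: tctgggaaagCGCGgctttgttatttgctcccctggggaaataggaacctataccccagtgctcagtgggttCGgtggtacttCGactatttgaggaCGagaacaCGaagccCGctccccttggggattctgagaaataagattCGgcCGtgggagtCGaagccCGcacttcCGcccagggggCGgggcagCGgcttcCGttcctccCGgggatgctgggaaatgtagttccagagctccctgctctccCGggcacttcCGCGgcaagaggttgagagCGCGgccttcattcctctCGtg
ZNF285, chr19:44401559-44401858, 17 CpG sites: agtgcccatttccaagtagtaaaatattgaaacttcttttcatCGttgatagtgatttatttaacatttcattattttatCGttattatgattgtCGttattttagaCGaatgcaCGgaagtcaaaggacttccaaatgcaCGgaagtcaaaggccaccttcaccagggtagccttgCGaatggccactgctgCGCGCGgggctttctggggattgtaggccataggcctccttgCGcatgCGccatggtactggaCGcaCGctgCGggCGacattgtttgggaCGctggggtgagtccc
ZNF180, chr19:44500473-44500772, 31 CpG sites: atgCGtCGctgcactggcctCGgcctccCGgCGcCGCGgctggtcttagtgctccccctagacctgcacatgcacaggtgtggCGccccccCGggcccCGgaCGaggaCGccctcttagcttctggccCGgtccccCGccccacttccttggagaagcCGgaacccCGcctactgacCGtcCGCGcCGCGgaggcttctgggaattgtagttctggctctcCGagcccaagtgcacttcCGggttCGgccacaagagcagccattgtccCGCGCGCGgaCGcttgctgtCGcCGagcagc
The silent ZNF529 promoter thus holds about as many CpG sites as that of ZNF180, which had 3231 counts, and the silent ZNF285 promoter as many as that of ZNF585A.

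Short motifs were counted on both strands of the same promoters. The ETS motif CCGGAAG was in 36.4% of members, against 10.7% of all promoters and 17.2% of those of tested genes. The YY1 motif AAGATGGC was in 9.09% of members, against 4.75% of tested genes and 3.03% of all promoters. CCAAT was in 25% of members, against 36.1% of tested genes and 35.7% of all promoters. TATAAA was in 0 of 44 members, against 6.6% of tested genes and 12% of all promoters. The NRF1 consensus motif was in 18.2% of members, against 10.3% of tested genes and 6.28% of all promoters. Within the members it was in 3 of the 28 that were tested and in 5 of the 16 below the filter, namely ZNF260, ZNF529, ZNF382, ZNF540 and ZNF285. The YY1, ETS and CCAAT motifs went the other way. In tested members and in those below the filter, YY1 was in 14.3% and 0%, ETS in 42.9% and 25%, and CCAAT in 32.1% and 12.5%. None of these differences was tested. The promoters of each pair above by RefSeq starts overlap, so the same site can be counted for both genes. That is so for the NRF1 match of ZNF529 and ZNF382, and the genes with a match are therefore not separate sites. Among the tested members, ZNF565 and ZNF146 each have an NRF1 match, and whether it is the same site was not examined. Matches of different motifs may overlap, and a match describes the sequence and not a bound site.

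Among expressed members, ZNF146 stood far above the rest and the other levels formed a gradual order. ZNF146, whose protein is made of zinc fingers with no KRAB domain, averaged 42.1 ± 0.931 CPM per kb of exon with DNMT1 knockdown, 44.2 ± 1.21 with DNMT3B knockdown and 40.3 ± 1.251 in Control (SD, n = 3). In Control the next genes were ZNF45 at 5.89 ± 0.0992, ZNF227 at 4.95 ± 0.0326 and ZNF302 at 3.585 ± 0.255 CPM per kb. ZNF302 and ZNF180, at 3.185 ± 0.0781 CPM per kb, were less than 2 SD of ZNF302 apart. With DNMT3B knockdown ZNF45 stood at 3.78 ± 0.0997 and ZNF227 at 3.80 ± 0.0103 CPM per kb, a gap smaller than the SD of ZNF45 and larger than that of ZNF227.

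With DNMT3B knockdown, the 19q13.31 genes were lower almost throughout. Of the 14 tested genes 12 were called lower (85.7%) and 0 higher, and the median log2 fold change was -0.43. Over all 16660 tested genes 47.7% were called, 24.6% lower and 23.1% higher, with a median log2 fold change of 0.00. A gene is called when its edgeR quasi-likelihood p, adjusted by Benjamini-Hochberg across the tested genes, is under 0.05, and each adjusted p given here is of that kind. The falls were of moderate size, from 1.28-fold to 1.56-fold, and none reached 2-fold. Summed over the 20 genes, the level was 100.9 ± 1.29 CPM with DNMT3B knockdown, against 140 ± 1.48 CPM in Control (SD, n = 3).

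ZNF45 had 16.4, 16.3 and 17.1 CPM with DNMT3B knockdown, against 26.2, 26.0 and 25.4 CPM in Control. This KRAB zinc finger gene was the second most abundant of the 50 in Control, and the groups did not overlap (log2 fold change -0.64 ± 0.0567 SE, adjusted p = 6.42e-11). ZNF180 had 9.25, 10.7 and 10.96 CPM with DNMT3B knockdown, against 15.3, 15.6 and 14.8 CPM in Control (log2 fold change -0.57 ± 0.0728, adjusted p = 1.09e-07). It lies at the far end of the segment, past the silent ZNF285 and ZNF229. ZNF227 had 19.3, 19.3 and 19.2 CPM with DNMT3B knockdown, against 24.96, 25.3 and 25.1 CPM in Control (log2 fold change -0.38 ± 0.0539, adjusted p = 6.07e-07). ZNF235 had 6.38, 6.46 and 6.09 CPM with DNMT3B knockdown, against 9.66, 9.09 and 9.63 CPM in Control (log2 fold change -0.59 ± 0.0874, adjusted p = 1.34e-06). Of the exon bases of ZNF227, 19.1% overlap ZNF235 on the other strand, and 23.3% of those of ZNF235 overlap ZNF227, ZNF233 or AC138473.1. Since the use of strand in counting is not known, both values are uncertain.

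ZNF283, at the near end of the segment, had 6.96, 7.001 and 8.58 CPM with DNMT3B knockdown, against 11.5, 10.7 and 11.6 CPM in Control (adjusted p = 1.49e-06). ZNF226 had 12.4, 11.9 and 10.5 CPM with DNMT3B knockdown, against 15.4, 15.05 and 14.1 CPM in Control (adjusted p = 0.00014). Every DNMT3B knockdown library was below every Control library for both. ZNF224, which encodes a KRAB repressor of the aldolase A gene, had 4.58, 4.79 and 4.86 CPM with DNMT3B knockdown, against 6.11, 6.63 and 6.32 CPM in Control (adjusted p = 0.000657). In the annotation 40.5% of its exon bases are also covered by AC021092.1 on the other strand, so its level is uncertain. ZNF221 had 2.86, 3.12 and 3.56 CPM with DNMT3B knockdown, against 4.80, 4.62 and 4.08 CPM in Control (adjusted p = 0.00103). ZNF112 had 4.62, 4.85 and 4.83 CPM with DNMT3B knockdown, against 6.32, 6.14 and 7.03 CPM in Control (adjusted p = 0.000333). ZNF222 had 2.17, 2.75 and 2.30 CPM with DNMT3B knockdown, against 3.996, 3.95 and 3.15 CPM in Control (adjusted p = 0.000753). The groups did not overlap for these 3 genes either. Part of ZNF222 (17.2% of exon bases) also belongs to AC067968.1.

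The 2 remaining falls were in ZNF225 and ZNF230. ZNF225 was at 4.09 ± 0.649 CPM with DNMT3B knockdown and 5.48 ± 0.608 CPM in Control (adjusted p = 0.00599). ZNF230 was at 2.97 ± 0.281 CPM with DNMT3B knockdown and 3.92 ± 0.555 CPM in Control (adjusted p = 0.0198), and this call was lost without DNMT3B knockdown replicate 3 (adjusted p = 0.107) and without Control replicate 3 (adjusted p = 0.128). The genes that were not called, ZNF234 (log2 fold change -0.14, adjusted p = 0.391) and ZNF233 (log2 fold change -0.06, adjusted p = 0.707), are separated by the called ZNF226, ZNF227 and ZNF235.

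**Figure D2:**
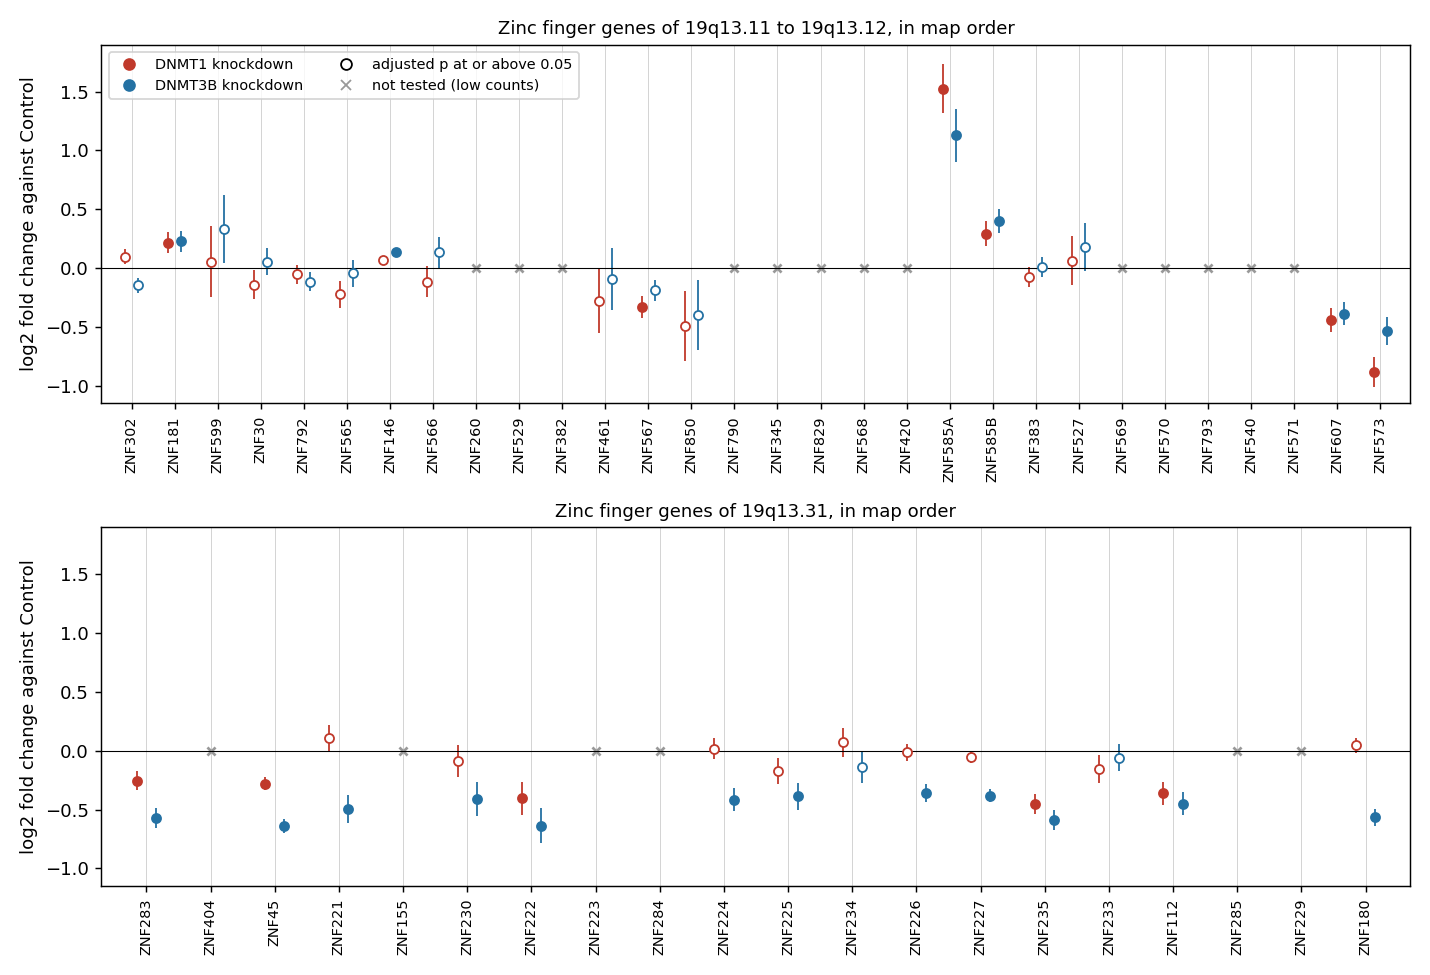
Log2 fold change against Control of each tested gene in map order for DNMT1 knockdown and DNMT3B knockdown, with bars of 1 SE; filled points have an adjusted p below 0.05 and crosses were not tested. At 19q13.31 the DNMT3B knockdown points run from -0.64 to -0.06, all below 0, and 12 of 14 are filled.

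With DNMT1 knockdown, fewer 19q13.31 genes were lower. Of the 14 tested genes 5 were called lower (35.7%) and 0 higher, with a median log2 fold change of -0.12. The background was 41.8% called, 20.8% lower and 21% higher, over all tested genes, with a median of -0.00. The 5 genes were ZNF45, ZNF235, ZNF112, ZNF222 and ZNF283, all of which were also called lower with DNMT3B knockdown. Both knockdowns were set against the same 3 Control libraries, so these calls are not independent. The summed level was 127 ± 2.41 CPM with DNMT1 knockdown, against 140 ± 1.48 CPM in Control.

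ZNF45 had 20.7, 22.3 and 21.0 CPM with DNMT1 knockdown, all below the Control libraries (log2 fold change -0.28 ± 0.0538, adjusted p = 9.4e-05). ZNF235 had 7.43, 6.14 and 7.19 CPM with DNMT1 knockdown, also without overlap (log2 fold change -0.45 ± 0.0847, adjusted p = 6.29e-05). ZNF112 was at 5.06 ± 0.310 CPM with DNMT1 knockdown and 6.50 ± 0.468 CPM in Control (adjusted p = 0.00288). The other calls changed when single libraries were left out. ZNF283 had 9.66, 9.89 and 8.77 CPM with DNMT1 knockdown (adjusted p = 0.0111), and was not called without DNMT1 knockdown replicate 3 (adjusted p = 0.0821). ZNF222 had 2.23, 3.45 and 2.70 CPM with DNMT1 knockdown, overlapping Control (adjusted p = 0.0227), and was not called without DNMT1 knockdown replicate 1 (adjusted p = 0.181), DNMT1 knockdown replicate 3 (0.0711), Control replicate 1 (0.107) or Control replicate 2 (0.0629). Without DNMT1 knockdown replicate 3 the count of lower genes was 3.

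The direct comparison of the knockdowns tested the difference at 19q13.31 gene by gene. DNMT1 knockdown was higher than DNMT3B knockdown for 7 of the 14 genes and lower for 0, against a background of 45.2% called, 24.3% higher and 20.9% lower. ZNF180 was 1.53-fold higher with DNMT1 knockdown (15.5, 15.1 and 16.5 CPM) than with DNMT3B knockdown (9.25, 10.7 and 10.96 CPM; adjusted p = 4.71e-08). ZNF221 was 1.52-fold higher, with 4.62, 4.99 and 4.94 CPM in DNMT1 knockdown and 2.86, 3.12 and 3.56 CPM in DNMT3B knockdown (adjusted p = 0.00017). Neither gene was called with DNMT1 knockdown against Control (adjusted p = 0.611 for ZNF180 and 0.453 for ZNF221). The other 5 were ZNF224 (1.35-fold, adjusted p = 0.00069), ZNF45 (1.28-fold, 1.01e-05), ZNF226 (1.27-fold, 0.000401), ZNF227 (1.254-fold, 1.44e-05) and ZNF283 (1.246-fold, 0.00528). ZNF224, ZNF226 and ZNF227 stood at 6.42 ± 0.341, 14.7 ± 0.884 and 24.2 ± 0.646 CPM with DNMT1 knockdown and were not called against Control, at adjusted p = 0.885, 0.886 and 0.42. For ZNF235 and ZNF112, called lower in both knockdowns, the difference between knockdowns was not called (log2 0.14 ± 0.0970 and 0.09 ± 0.109).

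**Figure D3:**
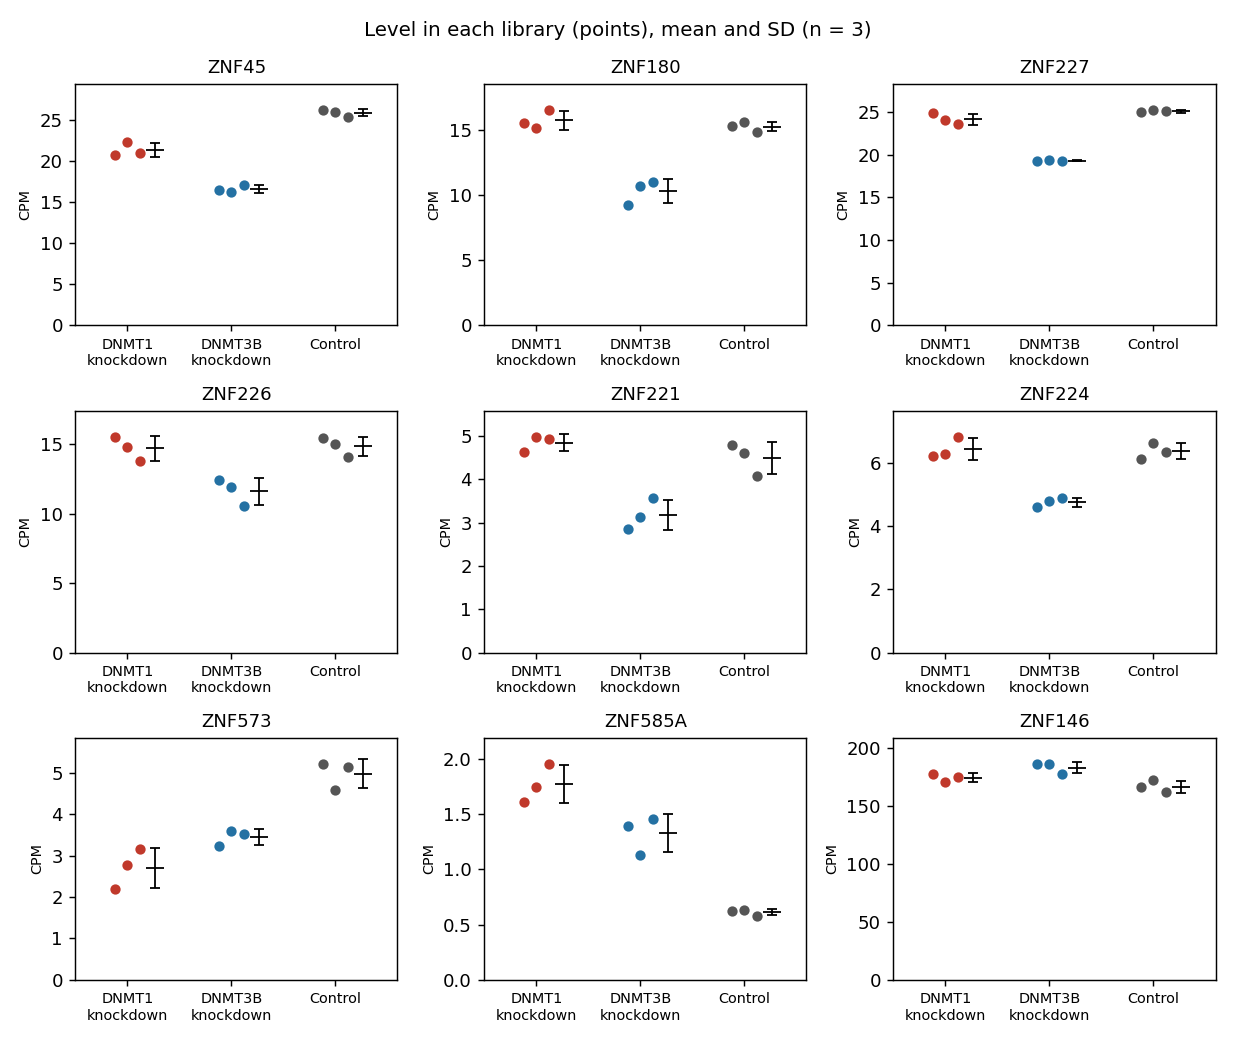
Level in CPM of 9 genes in each library (points), with mean and SD at the right of each group (n = 3), for DNMT1 knockdown, DNMT3B knockdown and Control. ZNF180, ZNF226, ZNF221 and ZNF224 overlap the Control libraries with DNMT1 knockdown and lie below them with DNMT3B knockdown, while ZNF573 is lower and ZNF585A higher in both.

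The 19q13.11 to 19q13.12 genes were called in both directions, and 2 pairs of neighbours were called alike, ZNF585A with ZNF585B and ZNF607 with ZNF573. With DNMT3B knockdown, 4 of the 17 tested genes were called higher (23.5%) and 2 lower (11.8%), with a median log2 fold change of 0.01. With DNMT1 knockdown, 3 were called higher and 3 lower (17.6% each), with a median of -0.07. These shares lie near or below those over all tested genes. The summed level of the 30 genes was 255 ± 5.72 CPM with DNMT1 knockdown and 265 ± 6.04 CPM with DNMT3B knockdown, against 251 ± 3.996 CPM in Control, and most of each sum came from ZNF146.

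ZNF585A showed the largest change against Control of the 31 tested genes, in both knockdowns. It had 1.61, 1.75 and 1.95 CPM with DNMT1 knockdown and 1.39, 1.13 and 1.46 CPM with DNMT3B knockdown, against 0.626, 0.633 and 0.578 CPM in Control. Both knockdowns were wholly above Control, 2.88-fold (log2 fold change 1.53 ± 0.208, adjusted p = 4.81e-07) and 2.19-fold (log2 fold change 1.13 ± 0.225, adjusted p = 9.96e-05). Its neighbour and close copy ZNF585B had 6.07, 6.27 and 5.65 CPM with DNMT1 knockdown and 6.75, 5.44 and 6.97 CPM with DNMT3B knockdown, against 5.19, 4.66 and 4.78 CPM in Control. That was 1.22-fold (adjusted p = 0.0228) and 1.32-fold (adjusted p = 0.0016) above Control. Of all 50-base stretches in their transcripts, 17.3% in ZNF585A and 24.9% in ZNF585B also occur in another gene, chiefly in the other copy, so how reads were divided between them is uncertain. The ZNF585B call with DNMT1 knockdown was lost without DNMT1 knockdown replicate 1 (adjusted p = 0.0537), DNMT1 knockdown replicate 2 (0.0814), Control replicate 2 (0.0683) or Control replicate 3 (0.0626).

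ZNF181 had 8.54, 7.33 and 7.65 CPM with DNMT1 knockdown and 8.26, 7.54 and 7.85 CPM with DNMT3B knockdown, against 7.10, 6.59 and 6.52 CPM in Control. Both groups lay just above Control (adjusted p = 0.046 and 0.0325), and both calls depended on single libraries. With DNMT1 knockdown the call was lost without DNMT1 knockdown replicate 1 (adjusted p = 0.223) or replicate 3 (0.0678), or Control replicate 2 (0.104) or replicate 3 (0.125). With DNMT3B knockdown it was lost without DNMT3B knockdown replicate 1 (adjusted p = 0.126) or replicate 3 (0.0625), or Control replicate 2 (0.0671) or replicate 3 (0.0934). ZNF146 had 186, 186 and 178 CPM with DNMT3B knockdown, against 167, 172 and 162 CPM in Control, a rise of 1.10-fold (adjusted p = 0.00169). With DNMT1 knockdown it had 178, 170 and 175 CPM, which overlapped Control (adjusted p = 0.131).

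ZNF573 and ZNF607, the last 2 genes of this segment on the map, were lower in both knockdowns. ZNF573 had 2.19, 2.77 and 3.16 CPM with DNMT1 knockdown and 3.23, 3.61 and 3.52 CPM with DNMT3B knockdown, against 5.22, 4.58 and 5.14 CPM in Control. The log2 fold changes were -0.89 ± 0.125 (adjusted p = 8.69e-07) and -0.54 ± 0.119 (adjusted p = 0.000379), with no overlap between knockdown and Control. ZNF607 had 4.66, 4.52 and 4.32 CPM with DNMT1 knockdown and 4.50, 5.17 and 4.48 CPM with DNMT3B knockdown, against 6.14, 6.29 and 5.94 CPM in Control (adjusted p = 0.000531 and 0.00168). In the annotation 12.5% of the exon bases of ZNF607 overlap AC093227.2 and 10.2% of those of ZNF573 overlap AC016582.2. ZNF567 had 6.81, 5.92 and 6.57 CPM with DNMT1 knockdown, against 8.47, 7.97 and 7.83 CPM in Control (log2 fold change -0.33, adjusted p = 0.00357). With DNMT3B knockdown it had 6.996, 7.97 and 6.55 CPM and was not called (adjusted p = 0.0801), although without DNMT3B knockdown replicate 2 the adjusted p was 0.0316.

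In the direct comparison, 1 of the 17 genes was higher and 1 lower with DNMT1 knockdown than with DNMT3B knockdown (5.88% each). Over all tested genes the shares were larger, 24.3% higher and 20.9% lower. ZNF302 had 19.7, 18.8 and 19.6 CPM with DNMT1 knockdown and 15.9, 16.8 and 16.5 CPM with DNMT3B knockdown, 1.18-fold apart (adjusted p = 0.00271). Control, at 18.6, 16.6 and 18.9 CPM, overlapped both knockdowns. Against Control, DNMT3B knockdown of ZNF302 was not called (adjusted p = 0.0578), but was without Control replicate 2 (adjusted p = 0.0145). ZNF573 was 1.27-fold lower with DNMT1 than with DNMT3B knockdown (log2 fold change -0.35 ± 0.143, adjusted p = 0.0465). The ZNF573 difference lost its call without DNMT1 knockdown replicate 1 (adjusted p = 0.267), DNMT1 knockdown replicate 2 (0.0773), DNMT3B knockdown replicate 2 (0.099), DNMT3B knockdown replicate 3 (0.116) or Control replicate 3 (0.0521), and with the replicate block (0.054). Over both segments 11 tested genes were called in none of the 3 comparisons, 9 of them here. Over all tested genes 41.8%, 47.7% and 45.2% were called in the single comparisons. The share called in none was not counted, so the 11 describe the members only.

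Over both segments, 3 genes were called higher in both knockdowns, 7 lower in both, 7 lower with DNMT3B knockdown and not with DNMT1 knockdown, 1 the reverse of that (ZNF567), and 1 higher with DNMT3B knockdown and not with DNMT1 knockdown (ZNF146). No gene was called in opposite directions, and 12 tested genes were called in neither comparison. Over all tested genes 41.8% were called with DNMT1 knockdown and 47.7% with DNMT3B knockdown, against the same Control libraries. The share of all tested genes with each joint pattern was not counted, so these counts describe the members only. Where a gene was called in one comparison alone, the difference is shown only for those named in the direct comparison.

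The shares called can be set beside those of zinc finger genes elsewhere. With DNMT1 knockdown, 9.68% of the 31 members were called higher and 25.8% lower, against 59.0% higher and 7.23% lower of 83 other tested ZNF genes of 19q, 43.5% and 6.52% of 46 of 19p, and 31.4% and 14.8% of 229 on other chromosomes. With DNMT3B knockdown, 12.9% of members were called higher and 45.2% lower, against 30.1% and 14.5% of the other ZNF genes of 19q, 23.9% and 10.9% of those of 19p, and 25.3% and 22.3% on other chromosomes. Over all tested genes, 21% were higher and 20.8% lower with DNMT1 knockdown, and 23.1% and 24.6% with DNMT3B knockdown. The 2 segments differed, so the pooled shares do not describe each of them. With DNMT3B knockdown, 85.7% of the 14 genes at 19q13.31 were lower and 0% higher. At 19q13.11 to 19q13.12, 11.8% of 17 were lower and 23.5% higher. No test of the difference between these gene sets was made. Genes within 1 Mb on either side of the 19q13.31 segment were called lower in 31.7% and higher in 17.1% of 41 tested cases with DNMT3B knockdown. Other genes inside the 19q13.11 to 19q13.12 segment were called lower in 13.5% and higher in 19.2% of 52 tested cases.

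**Figure D4:**
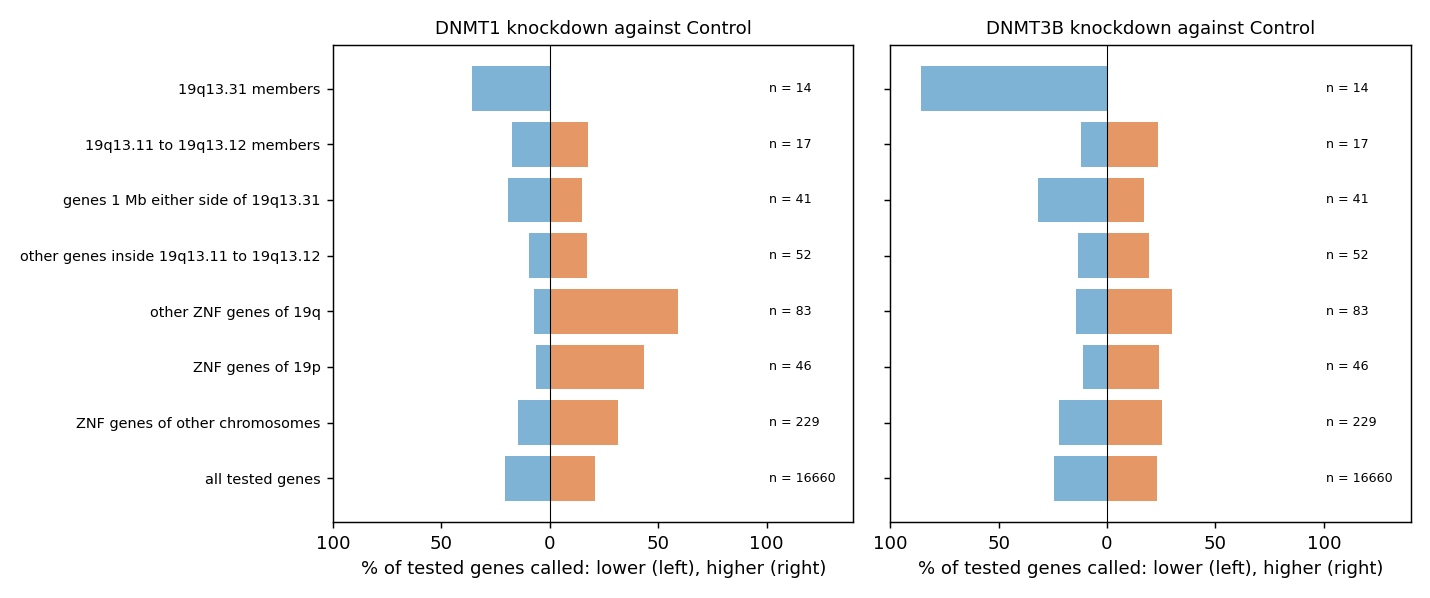
Share of tested genes called lower (left of 0) and higher (right of 0) in each gene set, in percent, for DNMT1 knockdown and DNMT3B knockdown against Control, with the number tested at the right. The 19q13.31 genes show 85.7% lower with DNMT3B knockdown, against 24.6% of all tested genes, and other ZNF genes of 19q show 59.0% higher with DNMT1 knockdown.

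Corepressor and heterochromatin genes through which KRAB proteins act changed by small amounts, the log2 fold changes lying between -0.14 and 0.19 for DNMT1 knockdown and between -0.30 and 0.33 for DNMT3B knockdown. Of 26 listed genes 25 were tested, and ZFP57, a zinc finger protein of imprinted regions, had 2 counts in all. With DNMT1 knockdown 6 were called higher (24%) and 2 lower (8%), against 21% and 20.8% of all tested genes, with a median log2 fold change of 0.01. With DNMT3B knockdown 5 were higher (20%) and 10 lower (40%), against 23.1% and 24.6% of all tested genes, with a median of -0.06. TRIM28 itself was not called in either knockdown (adjusted p = 0.561 with DNMT1 and 0.181 with DNMT3B knockdown). TASOR, a subunit of the HUSH silencing complex, was at 115.6 ± 1.31 CPM with DNMT1 knockdown and 86.5 ± 2.75 CPM with DNMT3B knockdown, against 101.4 ± 6.34 CPM in Control. It was called higher in the first (adjusted p = 0.00024) and lower in the second (adjusted p = 2.47e-05), and the direct difference was 0.42 on the log2 scale (adjusted p = 5.83e-10). CBX3, an HP1 protein gene, was at 148 ± 4.17 CPM with DNMT1 knockdown and 132 ± 5.42 CPM with DNMT3B knockdown, against 163 ± 4.602 CPM in Control, lower in both (adjusted p = 0.00245 and 3.14e-08). MORC2, which works with HUSH, rose to 93.0 ± 3.35 CPM with DNMT3B knockdown, against 74.2 ± 3.19 CPM in Control, and SETDB1 to 118 ± 0.517 CPM, against 102 ± 1.86 CPM in Control (adjusted p = 5.57e-08 and 4.65e-06). EHMT1, a histone H3 lysine methyltransferase, was at 160 ± 6.30 CPM with DNMT1 knockdown, against 140 ± 4.83 CPM in Control (adjusted p = 5.72e-05). With DNMT3B knockdown it was at 132 ± 2.03 CPM and called lower (log2 fold change -0.09, adjusted p = 0.0414), and the direct difference was 0.28 on the log2 scale (adjusted p = 1.39e-07). CBX1 was also higher with DNMT1 knockdown (log2 fold change 0.15, adjusted p = 0.000354). Between the knockdowns, SUV39H1 was lower (log2 fold change -0.30) and SUV39H2 higher (0.27) in DNMT1 knockdown than in DNMT3B knockdown libraries (adjusted p = 4e-06 and 9.02e-05).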

How the data were processed

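The deposited table holds raw read counts per gene symbol, which the authors had not scaled. The submitters' processing notes name GRCh38 (hg38), featureCounts, STAR and DESeq2; the versions, the annotation and the handling of strand and of multi-mapping reads are not stated there. Groups came from the sample labels, and 0 columns lacked a sample.

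The fit used edgeR 4.0.16 under R 4.3.3. The 16660 genes passing filterByExpr were scaled by TMM and fitted by quasi-likelihood over all 9 libraries, and p-values were adjusted by Benjamini-Hochberg over all of them. Levels are CPM of the TMM-scaled library size, ± is the SD for levels and the SE for log2 fold changes. Positions, exon lengths, exon overlaps and shared 50-base stretches are from GENCODE release 29 (GRCh38), whose symbols matched 88.5% of the table once and all 50 members; the authors' annotation may differ. Promoters are from RefSeq.

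Members in full are those with the 8 largest called changes per direction in each comparison, the 4 highest per kb in Control, and every member below the filter by its counts; of the corepressor list, up to 4 called genes per comparison by adjusted p. The members and lists were chosen with earlier results of these data known; the motifs, head-to-head pairs and gene sets by position were added after the values were seen. Same-numbered libraries of different groups showed no clear shared deviation (r from -0.12 to 0.12, with 1 of 9 pairs above 0.1). Libraries with different numbers gave r from -0.12 to 0.13, with 3 of 18 pairs above 0.1. A weak shared effect would be missed this way, so pairing by number is not excluded. Replicates were not copies of one library: the chi-square over its degrees of freedom was 1.78 to 3.64 for each pair. The scripts were checked on simulated data. Alternatives were DESeq2 1.42.0, limma-voom (limma 3.58.1), DESeq2 size factors, no TMM, no filter, at least 1 CPM in 3 libraries, only the groups compared, a replicate block, and leaving out each library.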

Additional observations from a re-analysis of the deposited data

How the results depend on the processing

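When each library was left out in turn, 11 to 12 of the 19q13.31 genes were lower with DNMT3B knockdown and 3 to 5 with DNMT1 knockdown. Members higher with DNMT1 knockdown, all at 19q13.11 to 19q13.12, numbered 1 to 3, and members lower in DNMT1 knockdown than in DNMT3B knockdown 0 to 1. DESeq2 gave 1 member higher with DNMT1 knockdown and 0 lower in DNMT1 knockdown than in DNMT3B knockdown, and the replicate block also gave 0 for the second. No called member changed direction under any alternative tried. DESeq2 also lost ZNF181, ZNF585B and ZNF222 with DNMT1 knockdown (adjusted p = 0.145, 0.0794 and 0.0788) and ZNF181 and ZNF230 with DNMT3B knockdown (adjusted p = 0.103 and 0.0638). ZNF181 with DNMT1 knockdown was also lost with limma-voom (adjusted p = 0.0516) and without the low-count filter (adjusted p = 0.0705). The replicate block changed no other call of a member than that of ZNF573. Values that were not called changed sign in some fits that left out a library, and the cause was not tested. For DNMT1 knockdown against Control, the log2 fold changes ran over ZNF224 -0.0244 to 0.0493, ZNF226 -0.0535 to 0.0315, ZNF230 -0.29 to 0.016, ZNF527 -0.11 to 0.22, ZNF566 -0.20 to 0.0219 and ZNF599 -0.18 to 0.28. For DNMT3B knockdown against Control, the log2 fold changes ran over ZNF383 -0.0349 to 0.0459, ZNF461 -0.22 to 0.0188 and ZNF565 -0.13 to 0.0248. For DNMT1 knockdown against DNMT3B knockdown, the log2 fold changes ran over ZNF181 -0.0779 to 0.0342, ZNF527 -0.29 to 0.0400, ZNF607 -0.0918 to 0.00231 and ZNF850 -0.23 to 0.10. Without the low-count filter ZNF383 had -0.00205 with DNMT3B knockdown against Control.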
